A study of Mus musculus with 3 samples.

Results

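Dppa2, Dppa3, Dppa4, Dppa5a and Zfp42 were chosen by name as marker genes of the naive state of mouse embryonic stem cells (mESCs), and they are 5 of the 22367 protein-coding genes of the GENCODE M1 annotation on chromosomes 1 to 19, X and Y. Their 5-methylcytosine (5mC) and 5-hydroxymethylcytosine (5hmC) levels were read from base-resolution sequencing of genomic DNA of E14 mESCs, an established line. All DNA came from cells grown on gelatin with 15% FBS, 1000 units/mL LIF, 1 µM PD0325901 (a MEK inhibitor) and 3 µM CHIR99021 (a GSK3 inhibitor). TAPSβ reads 5mC and also converts the rarer oxidized forms 5-formylcytosine (5fC) and 5-carboxylcytosine (5caC), CAPS reads 5hmC together with 5fC and 5caC, and PS reads only 5fC and 5caC. Each method had 1 library, with 377288829 to 511365019 base calls, so no difference between genes or regions was tested against replicate error, and the intervals in parentheses are exact (Clopper-Pearson) 95% binomial intervals that cover counting error only.

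Dppa2 and Dppa4 are neighbouring genes whose SAP-domain proteins bind DNA and act together on developmental and early-embryonic promoters. Dppa3 (also Stella or PGC7) encodes a maternal and germ cell protein known to protect DNA from demethylation in the zygote, and to oppose UHRF1, the partner of the maintenance methyltransferase DNMT1. Dppa5a (Esg1) encodes a KH-domain RNA-binding protein, and Zfp42 (Rex1) encodes a zinc-finger protein related to YY1. Dppa3 and Zfp42 are known to be expressed unevenly from cell to cell in mESC cultures with serum. In vertebrate DNA, 5mC at CpGs of a promoter is associated with silencing, and TET enzymes oxidize 5mC to 5hmC, 5fC and 5caC. RNA was not analysed here, so no level below is tied to the expression of these genes.

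The 300 bases upstream of the annotated start of Dppa3, the promoter the results turn on, and of Dppa2 and Zfp42, shown for comparison as low promoters, are printed 5′ to 3′ in the direction of transcription, from NCBIM37 (mm9), to show the CpGs, in capitals, on which the promoter values rest. Dppa3 lies at chr6:122576428-122580290 on the plus strand, Dppa2 at chr16:48310590-48319836 and Dppa4 at chr16:48283848-48294405, also on the plus strand. Dppa5a lies at chr9:78214859-78215984 and Zfp42 at chr8:44380422-44392363, both on the minus strand. The printed stretches are chr6:122576128-122576427 for Dppa3, with 7 CpGs, chr16:48310290-48310589 for Dppa2, with 5 CpGs, and chr8:44392364-44392663 for Zfp42, with 10 CpGs. None of them holds an annotated exon.
Dppa3: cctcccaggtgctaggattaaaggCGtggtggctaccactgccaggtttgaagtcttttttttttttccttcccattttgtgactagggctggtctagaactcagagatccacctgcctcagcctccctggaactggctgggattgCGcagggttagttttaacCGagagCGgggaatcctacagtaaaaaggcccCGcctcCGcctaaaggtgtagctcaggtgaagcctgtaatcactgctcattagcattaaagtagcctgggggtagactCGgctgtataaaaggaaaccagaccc
Dppa2: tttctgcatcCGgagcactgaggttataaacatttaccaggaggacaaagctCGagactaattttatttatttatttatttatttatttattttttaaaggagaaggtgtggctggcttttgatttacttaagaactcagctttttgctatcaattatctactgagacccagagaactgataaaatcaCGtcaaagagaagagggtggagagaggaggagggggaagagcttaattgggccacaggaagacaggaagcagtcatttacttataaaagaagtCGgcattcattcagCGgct
Zfp42: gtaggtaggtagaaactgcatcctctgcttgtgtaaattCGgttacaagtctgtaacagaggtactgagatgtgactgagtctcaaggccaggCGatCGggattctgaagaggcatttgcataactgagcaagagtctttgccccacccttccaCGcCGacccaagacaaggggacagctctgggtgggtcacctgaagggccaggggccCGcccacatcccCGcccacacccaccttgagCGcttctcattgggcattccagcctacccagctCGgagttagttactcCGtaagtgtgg
The promoter window, 500 bp on each side of the start, held 16 CpGs in Dppa2, 19 in Dppa4, 27 in Dppa3, 28 in Zfp42 and 29 in Dppa5a. The ratio of observed to expected CpGs ran from 0.327 in Dppa2 to 0.487 in Zfp42, with 0.443 in Dppa3 and 0.441 in Dppa5a, so CpG density did not set Dppa3 apart.

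Of the 5 promoters, that of Dppa3 was the one with intermediate 5mC, and the other 4 were almost free of it. TAPSβ reads were modified in 151 of 501 base calls at Dppa3, a level of 30.1% (26.1 to 34.4). The TAPSβ level was 0.26% (1 of 384 base calls) at Dppa2, 0.855% (5 of 585) at Dppa4, 1.57% (16 of 1017) at Dppa5a and 0.324% (3 of 925) at Zfp42. The intervals of those 4 promoters all ended at or below 2.54%. Of 21129 protein-coding promoters with at least 50 TAPSβ base calls, 63.2% had a level under 20% (called low here) and 34.7% lay from 20% to under 80% (intermediate), so both kinds of value were common and 1 of 5 does not stand out from these shares. The Dppa3 level was above that of 65.5% of promoters. In a narrower window of 250 bp on each side it was 16.1%, under the bound of 20%.

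5hmC at the 5 promoters followed the same split. The CAPS level was 5.94% (26 of 438 base calls, 3.91 to 8.58) at Dppa3, above that of 91.8% of promoters, against a median of 1.26% over 20750 promoters. It was 3.57% when Dppa3 cytosines with fewer than 10 CAPS reads were left out. It was 1.14% (3 of 263) at Dppa2, 1.13% (4 of 355) at Dppa4, 0.174% (1 of 576) at Dppa5a and 1.00% (6 of 599) at Zfp42. In a one-sided exact binomial test of each promoter against the CAPS false-positive rate of 0.0072, Dppa3 passed (Benjamini-Hochberg adjusted p = 1.5e-14 over all promoters). The adjusted p was 0.43 for Dppa4, 0.444 for Zfp42, 0.482 for Dppa2 and 1 for Dppa5a. A share of 37.7% of all tested promoters passed, so 1 of 5 did not exceed the background. At 263 to 599 base calls, a 5hmC level of 1% could not be told from the false-positive rate.

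**Figure D1:**
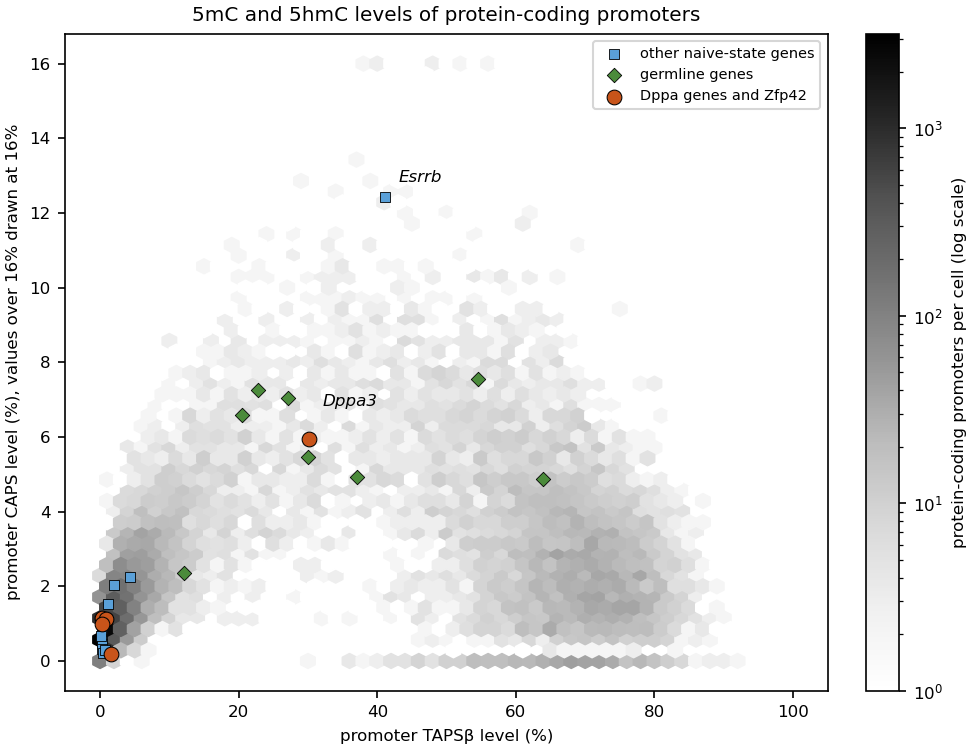
Promoter TAPSβ level (x axis, %) against promoter CAPS level (y axis, %) for protein-coding genes. Grey cells are shaded by the number of promoters on a log scale, and CAPS values over 16% are drawn at 16%. Coloured points mark the 5 genes, the other naive-state genes and the germline genes. Dppa3 stands at 30.1% TAPSβ and 5.94% CAPS, while the other 4 genes stand below 2% on both axes.

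Intermediate promoters as a class carried more CAPS signal than low ones, and Dppa3 was compared with that class. Of 6874 intermediate promoters with enough base calls in all 3 libraries, 78.4% had a lower CAPS level than Dppa3, and their median was 3.40%. That rank uses the 5.94% level. Dppa3 cytosines with at least 10 CAPS reads gave 3.57%, near that median, and the class was not recomputed at that minimum. The median of 13309 low promoters was 0.903%. Of the sum of the CAPS and TAPSβ levels at the Dppa3 promoter, CAPS made up 16.5% (11.7 to 22.6). 5fC and 5caC added little, since PS had 2 modified of 514 base calls (0.389%) at Dppa3. PS had 0 modified of 301 base calls at Dppa2, which allows a level of up to 0.997% if 3 counts are taken as the limit of a count of 0, and 0 of 537 at Zfp42, which by the same limit allows up to 0.559%. It had 2 of 430 (0.465%) at Dppa4 and 5 of 703 (0.711%) at Dppa5a, and no promoter cytosine of the 5 genes was called in PS.

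Within the Dppa3 promoter, 5mC was not even. With both strands of a CpG summed, 16 of the 27 CpGs were intermediate, 11 were low, none reached 80%, and 2 had no modified read. The highest level was 15 of 19 reads (78.9%) at 326 bp upstream of the start, and the CpG at 312 bp upstream had the same counts. The lowest was 0 of 16 reads at 136 bp downstream, which allows a level of up to 18.8% if 3 counts are taken as the limit of a count of 0. The CpGs of the printed upstream stretch lay at 276, 154, 136, 130, 104, 98 and 26 bp upstream, with TAPSβ levels of 54.5%, 36.0%, 9.52%, 23.8%, 21.1%, 10.5% and 14.3% in that order. The levels thus were highest at the far end of the stretch and low near the start, with 12 to 25 reads behind each CpG of the window.

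Pooled by distance, with bounds chosen after the values were seen, the Dppa3 promoter held a less methylated centre between methylated shoulders. From 250 bp upstream to 300 bp downstream the TAPSβ level was 16.9% (55 of 325, 13.0 to 21.5). From 500 to 251 bp upstream it was 69.0% (58 of 84, 58.0 to 78.7), and from 301 to 500 bp downstream 41.3% (38 of 92, 31.1 to 52.1). Since the bounds follow these values, the difference is a description.

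The CAPS level was 6.47% (20 of 309, 4.0 to 9.82) in the centre, 4.92% (3 of 61) in the upstream shoulder and 4.41% (3 of 68) in the downstream one, with overlapping intervals. From 501 to 1000 bp downstream, in the gene, TAPSβ was 36.3% and CAPS 9.09% (17 of 187, 5.39 to 14.2). From 1000 to 501 bp upstream, TAPSβ was 45.5% and CAPS 2.94% (3 of 102, 0.611 to 8.36).

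**Figure D2:**
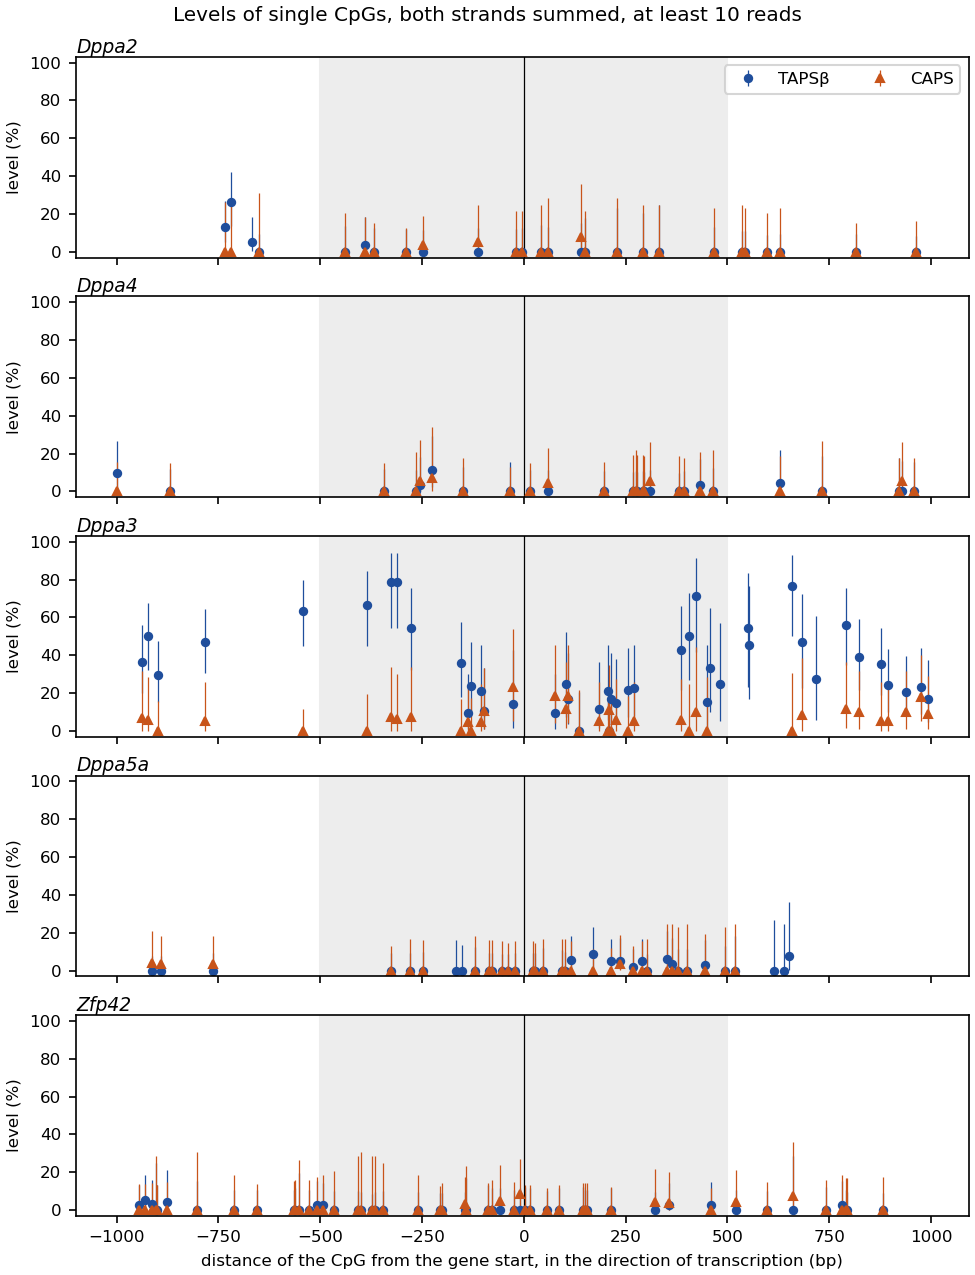
TAPSβ and CAPS levels (%) of single CpGs against distance from the gene start (bp, in the direction of transcription) for each gene, both strands summed, at least 10 reads, with 95% binomial intervals and the promoter window shaded. In Dppa3 the TAPSβ points go from 78.9% at 326 bp upstream to 0% at 136 bp downstream, while the TAPSβ points of the other 4 genes in the shaded window stay at or below 11.1%.

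The CpGs of the other 4 promoters were all low. No modified TAPSβ read was seen at 15 of the 16 CpGs of Dppa2, 16 of the 19 of Dppa4, 20 of the 29 of Dppa5a and 25 of the 28 of Zfp42. Their highest CpGs were at 3.57% (1 of 28 reads) in Dppa2, 11.1% (3 of 27) in Dppa4, 8.57% (3 of 35) in Dppa5a and 2.86% (1 of 35) in Zfp42. At least 1 modified CAPS read was seen at 17 CpGs of the Dppa3 window, 5 of Zfp42, 4 of Dppa4, 3 of Dppa2 and 1 of Dppa5a.

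Single cytosines were called in CAPS by the same binomial test at 5 or more reads, adjusted over all cytosines of the genome. At the 5 promoters 2 of 225 tested cytosines were called (0.889%, against 0.506% of the tested cytosines of all promoters), both on the plus strand of Dppa3, at 26 bp upstream (2 of 5 reads, exact binomial test, adjusted p = 0.0352) and at 76 bp downstream (2 of 6 reads, adjusted p = 0.0465). Each rests on 2 modified reads, and neither could be tested at a minimum of 10 reads. Among promoter cytosines with at least 10 CAPS reads, the highest in Dppa3 was at 110 bp downstream on the minus strand, with 2 of 10 reads (exact binomial test, adjusted p = 0.0688). The highest of the other genes had 1 modified read each, among 10 reads in Dppa2, 11 in Dppa4, 17 in Dppa5a and 10 in Zfp42.

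Over the genes with 5 kb on each side, 58 of 1885 tested cytosines were called in CAPS, 3.08% against 1.64% of all tested cytosines of the genome. The calls fell on Dppa4 (20 of 437 tested), Dppa2 (17 of 347) and Dppa3 (15 of 376), with 4 of 492 at Zfp42 and 2 of 233 at Dppa5a. The share was 4.9% at Dppa2, 4.58% at Dppa4 and 3.99% at Dppa3, all above the background, and 0.813% at Zfp42 and 0.858% at Dppa5a, both below it. The pooled CAPS levels of these loci followed suit, at 5.76% (5.02 to 6.58) for Dppa2, 5.33% (4.67 to 6.06) for Dppa4 and 4.98% (4.32 to 5.71) for Dppa3. They were 2.32% (1.94 to 2.76) for Zfp42 and 1.78% (1.31 to 2.36) for Dppa5a. The first 3 genes do not differ beyond their intervals, nor do the last pair, and the CAPS level over all CpG cytosines of the library was 3.14%.

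TAPSβ over the same loci gave 41.7% (40.5 to 43.0) for Dppa4, 35.1% (33.8 to 36.4) for Dppa3 and 29.4% (28.2 to 30.7) for Dppa2. Zfp42 stood at 5.49% (5.03 to 5.98) and Dppa5a at 5.04% (4.41 to 5.73), against 57.5% over all CpG cytosines. The loci of all 5 genes were thus below the level of all CpG cytosines, a set unlike these loci of promoter, gene and flanks. Pooled over protein-coding genes, TAPSβ was 5.78% in promoters, 47.9% in exons, 59.7% in introns, 44.0% upstream and 46.8% downstream. For Zfp42 and Dppa5a the low level was not limited to the promoter.

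In Dppa2 the unmethylated promoter sat within a gene of moderate 5mC. TAPSβ was 39.9% in exons, 31.0% in introns, 23.5% in the upstream 5 kb and 34.6% in the downstream 5 kb, below the medians over genes of 60.0%, 59.0%, 57.5% and 63.1%. CAPS was 3.70% in exons, 5.54% in introns, 6.65% (49 of 737 base calls) upstream and 8.08% (72 of 891, 6.38 to 10.1) downstream. The last was above the level of 98.7% of genes in that region, and the upstream one above that of 96.5%. Exons and introns exclude the promoter window here. Of the called cytosines of Dppa2, 4 were upstream, 8 in the gene and 5 downstream, and the one with the most modified CAPS reads was on the minus strand 3229 bp upstream of the start (5 of 13 reads, exact binomial test, adjusted p = 2.46e-05).

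Dppa4 had the most methylated body of the 5. TAPSβ was 57.6% (54.4 to 60.8) in exons and 49.4% (47.1 to 51.7) in introns, 37.2% upstream and 42.6% downstream. CAPS was 9.40% (60 of 638, 7.25 to 11.9) in exons, above the level of 99.3% of genes, 3.02% (42 of 1391) in introns, 7.58% (59 of 778) upstream and 5.68% (59 of 1039) downstream. The CAPS intervals of exons and introns of Dppa4 did not overlap.

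The exon value of Dppa4 rests in part on cytosines that read as modified in PS as well. At chr16:48289206 on the minus strand, in an exon, 16 of 18 TAPSβ reads, 8 of 12 CAPS reads and 9 of 13 PS reads were modified. At chr16:48289278, 72 bp further on, they were 15 of 17, 6 of 16 and 6 of 12. These were the 2 cytosines of the 5 loci called in PS (exact binomial test, adjusted p = 3.46e-17 and 1.09e-09), where 0.0791% of tested cytosines of the genome were called. A C-to-T sequence difference of the line from the reference also reads as modified by all 3 methods, and 5fC or 5caC cannot be told apart from it in these counts. Both cytosines also lie in sequence matched at 93.5% identity on chromosome 18, and what reads from there add was not tested. The study's methods left sites at known variants of the line out of later analyses, and no source used here says whether that was done in the deposited counts. Without cytosines at 20% or more in PS at 5 or more reads, CAPS in the exons was 7.54% (5.57 to 9.93) and PS went from 2.43% (17 of 699) to 0.297% (2 of 674). The fall in PS follows from a filter on PS itself.

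In Dppa3, TAPSβ was 30.3% in exons, 24.8% (22.6 to 27.0) in introns, 46.9% upstream and 40.2% downstream. The level in introns was above that of 7.21% of genes. CAPS in the introns was 6.05% (60 of 991, 4.65 to 7.72), above that of 96.7% of genes, with 3.09% (16 of 518) in exons, 4.98% upstream and 4.58% downstream. Of its 15 called cytosines, 5 lay in the introns within 1470 bp of the start, among them one 1036 bp downstream of the start with 5 of 16 CAPS reads (exact binomial test, adjusted p = 6.69e-05) and 6 of 12 TAPSβ reads.

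Upstream of Dppa3 was a short stretch of very low TAPSβ level. In the 500-bp bin from 2000 to 1501 bp upstream, 1 of 187 TAPSβ base calls (0.535%) and 0 of 109 CAPS base calls were modified, the latter allowing up to 2.75%. The bin before it had 46.7% TAPSβ (42 of 90) and 9.43% CAPS (5 of 53), and the bin after it 37.6% (64 of 170) and 5.94% (6 of 101). This bin was singled out after its values were seen.

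Zfp42 was low in 5mC in each region where it was read, but only 83 of 126 CpG cytosines of its upstream 5 kb were listed in TAPSβ. TAPSβ was 4.55% in exons, 3.71% (3.14 to 4.34) in introns, 7.78% upstream and 16% (13.7 to 18.4) downstream, each above the level of at most 5.26% of genes. CAPS was 1.33% in exons, 2.11% in introns and 2.11% upstream. Downstream it was 6.41% (38 of 593, 4.57 to 8.69), above 93.8% of genes and with an interval above those of its own other regions. The called cytosines of Zfp42 were 3 in that flank and 1 upstream, and one of those downstream had 4 of 7 CAPS reads against 1 of 10 TAPSβ reads.

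Dppa5a was low in 5mC on both sides as well. TAPSβ was 7.07% (87 of 1230) in the upstream 5 kb and 5.65% (116 of 2054) downstream. CAPS was 3.25% upstream, above the level of 53.3% of genes, and 1.65% downstream, above that of 14.6%. Its introns had 1 modified of 67 TAPSβ base calls, and its exons outside the promoter window had no TAPSβ or CAPS reads at all. The last 245 bases of the annotated transcript occur at 100% identity at 2 other places on chromosome 9, and reads of low mapping quality had been left out upstream. The exons of Dppa5a outside the window were not measured here.

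**Figure D3:**
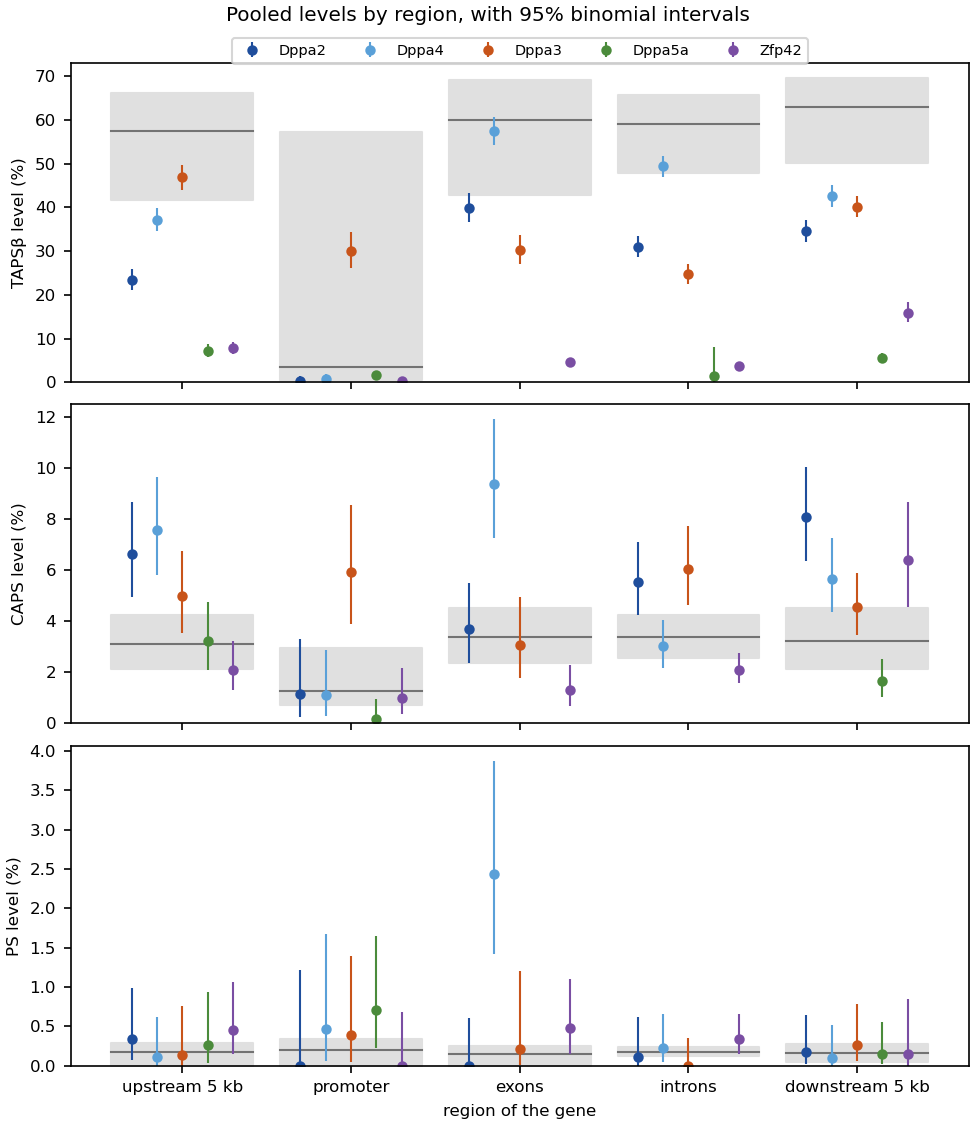
Pooled TAPSβ, CAPS and PS levels (%) of each gene in its promoter, exons, introns and 5-kb flanks, with 95% binomial intervals; grey boxes span the quartiles over protein-coding genes, with the median as a line, and regions with fewer than 50 base calls are left out. Dppa3 is the gene whose promoter TAPSβ level (30.1%) is near that of its own exons (30.3%), and Dppa4 has the highest exon TAPSβ (57.6%) and CAPS (9.40%) levels.

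In 500-bp bins, the stretch around the start with TAPSβ under 20% was 3.5 kb in Dppa2, from 2.0 kb upstream to 1.5 kb downstream, and 3.0 kb in Dppa4, from 1.0 kb upstream to 2.0 kb downstream. It was 16.5 kb around Dppa5a, from 11.5 kb upstream to 5.0 kb downstream, which takes in Ooep, an oocyte gene of the subcortical maternal complex. It was 20 kb at Zfp42, from 4.5 kb upstream to 15.5 kb downstream, and its upstream end is set by bins without enough reads, not by a level. Dppa3 had none in these bins, since its first bins on both sides of the start stood at 40.4% and 23.2%. The bins break at the start and so split its less methylated centre. From 250 bp upstream to 300 bp downstream that centre was at 16.9%, under 20%. Within the stretches CAPS was 1.80% at Dppa2, 1.06% at Dppa4, 2.04% at Dppa5a and 2.00% at Zfp42.

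**Figure D4:**
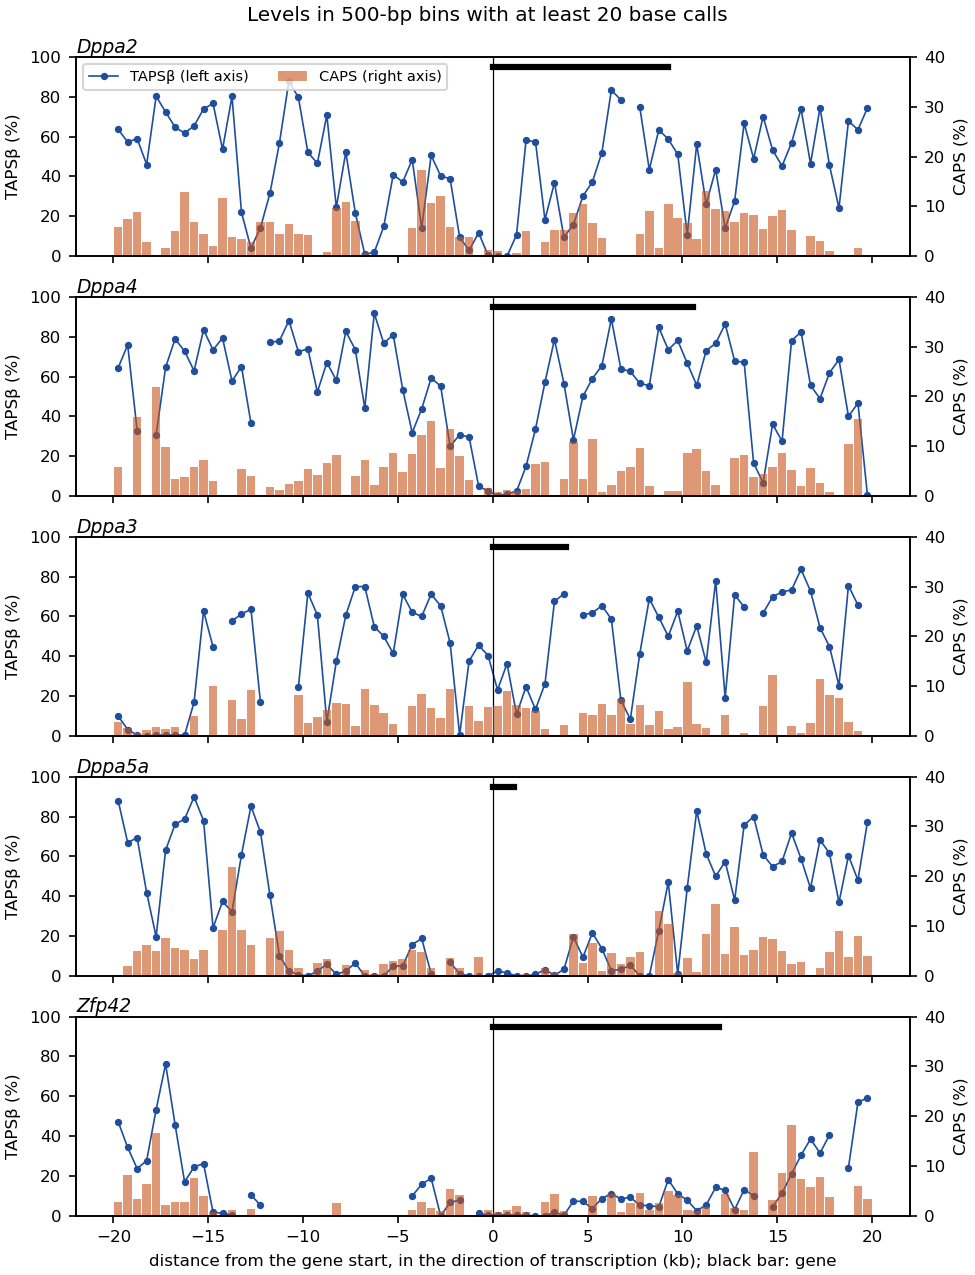
TAPSβ level (line, left axis, %) and CAPS level (bars, right axis, %) in 500-bp bins with at least 20 base calls, from 20 kb upstream to 20 kb downstream of each gene start; the black bar marks the gene. The low stretch spans 16.5 kb at Dppa5a and 20 kb at Zfp42, but 3.5 kb and 3.0 kb at Dppa2 and Dppa4.

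Bins were also grouped by their TAPSβ level. Within 10 kb of the 5 starts, 32 bins with 20 to under 50% TAPSβ had a CAPS level of 7.01% (6.17 to 7.91), 58 bins at or above 50% had 4.78% (4.24 to 5.37), and 88 bins under 20% had 2.25% (1.99 to 2.52). Over all autosomes the same classes had 6.04%, 2.89% and 2.35%, so the middle class was highest there too. The genes fill the classes unequally, since 35 of the 88 bins under 20% belong to Dppa5a and 28 to Zfp42. By gene, the class from 20 to under 50% had 9.62% (3 bins) at Dppa5a, 8.42% at Dppa4, 7.12% at Dppa2 and 5.82% at Dppa3, with overlapping intervals, and Zfp42 had no bin in it. The Dppa3 value was below that of the autosomes, but its interval (4.67 to 7.15) holds the autosome value of 6.04%. The class at or above 50% had 5.29% at Dppa2, 5.07% at Dppa4 and 4.23% at Dppa3, and Dppa5a and Zfp42 had no bin in it. The class under 20% had 2.68% at Dppa2, 1.06% at Dppa4, 1.83% at Dppa5a and 1.96% at Zfp42. At Dppa3 it had 4.75% (3.68 to 6.02), above its class from 50% up and with an interval overlapping both of its other classes. Bins of 1 locus share their neighbours and their library, and no test was made between classes.

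Other genes of the pluripotency network were read at the same window. Of 12 other naive-state genes found, 11 had low promoters, with a TAPSβ median of 0.333% against 3.38% over all promoters. Esrrb, a nuclear receptor of the naive network, was the intermediate one, with 41.1% TAPSβ (226 of 550) and 12.4% CAPS (37 of 298, 8.89 to 16.7), above the Dppa3 values in both. In CAPS 4 of the 12 passed the test (Esrrb, Gdf3, Prdm14 and Tcl1), near the background of 37.7%. With the CAPS level of promoters under 10% TAPSβ as background, which 29.5% of all tested promoters passed, 2 of the 12 passed, and Gdf3 (exact binomial test, adjusted p = 0.113) and Tcl1 (adjusted p = 0.242) did not. All 3 core factors were low, with Nanog at 9.80% (70 of 714), Sox2 at 0.11% and Pou5f1 at 0 of 1076, and 0 of the 3 passed in CAPS.

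Of 6 primed-state and lineage genes, 4 were low and 2 intermediate. Otx2, a factor of the primed state, had values close to those of Dppa3, at 27.4% TAPSβ (24.2 to 30.9) and 7.59% CAPS (5.14 to 10.7), with overlapping intervals in both. Gata4 had 67.7% TAPSβ and 1.95% CAPS, and 1 of the 6 genes passed in CAPS. Of 8 germline genes, 7 were intermediate, with Ddx4 low at 12.1%, and all 8 passed in CAPS, against 34.7% intermediate and 37.7% passing over all promoters. The medians of the germline list were 28.6% TAPSβ and 6.03% CAPS, against 30.1% and 5.94% at Dppa3. Mael, a piRNA factor, had 27.1% and 7.05%, and Slc25a31 30.0% and 5.48%.

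Further annotated genes with a name of the Dppa series were intermediate and mostly methylated, Dppa5b at 74.3% TAPSβ (130 of 175) and Dppa1 at 60.8% (124 of 204). Around Dppa3, the promoters of Gdf3 (1.98%), Apobec1 (9.66%) and Nanog (9.80%) were low. The neighbour of Dppa2 and Dppa4 within 100 kb, Gm7204, was at 70.3%.

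The genes with the most similar TAPSβ levels over the 5 regions were found by the root mean square difference among 17767 genes. For Zfp42 they were Zic2 (1.84 percentage points), Irf2bp2 (2.14) and Fgf4 (2.63). For Dppa4 they were Sypl2 (2.59), Flywch1 (2.61) and Gtf2e2 (2.84), and for Dppa2 Stac2 (3.88), Zbtb8a (3.94) and Plin3 (4.25). For Dppa3 the differences were larger, with Lrrc25 at 5.43, Tyro3 at 5.64 and Slc27a1 at 7.35, and Dppa5a could not be compared because its exons had no reads.

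The 30.1% at the Dppa3 promoter is a mean over molecules. A mixture of methylated and unmethylated cells, a difference between alleles and partly methylated molecules cannot be told apart in counts pooled per cytosine.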

How the data were processed

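TAPSβ, CAPS and PS libraries of E14 mESC DNA, 1 per method, were analysed from the deposited CpG files. Per the submitters' processing notes, reads were trimmed with Trim Galore 0.3.1, mapped with BWA 0.7.12 to mm9 and freed of duplicates with Picard 2.3.0. The authors called modified bases with asTair and left out reads of low mapping quality. For each CpG cytosine they deposited the modified and the unmodified read count, not normalized, and the fraction of modified reads, equal to the ratio of the counts to within 0.00051 wherever there were reads. A cytosine had a median of 13 TAPSβ reads, and of 9 reads in each of the other libraries, so values of single cytosines are coarse.

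Genes were taken from GENCODE M1 on NCBIM37, which is mm9. Counts were summed over the promoter (500 bp each side of the start), over exons and introns outside it, and over 5 kb on each side, and levels are modified reads over all reads. Clopper-Pearson intervals take every base call as independent, also those on 1 read, and cover counting error only. Cytosines with at least 5 reads were called where a one-sided exact binomial p, adjusted over the genome by Benjamini and Hochberg, was under 0.05, with false-positive rates given for the methods as background (CAPS 0.0072, PS 0.0027). Promoters with at least 50 CAPS base calls were tested likewise. PS calling takes over the CAPS procedure. Both tests were run on independent counts simulated at the assumed CAPS background, some of them raised. This checks the calculation and not the calls in the real data. Sequence copies were searched with blastn 2.17.0 and kept from 95% identity over 250 bp. The shorter Dppa5a matches and the less alike Dppa4 match named in the text are exceptions. Calculations used scipy 1.17.1, numpy 2.4.6, pandas 2.3.3 and pyarrow 21.0.0 in Python 3.11.15, and plots matplotlib 3.10.9.

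The members, lists and tests were chosen with earlier results of these data known. What the text names was drawn, for each gene, from the called cytosines, the 3 highest promoter cytosines in CAPS with at least 10 reads, the lowest and highest promoter CpG, the 3 genes most like it, neighbours within 100 kb (1 is not reported here) and up to 4 genes per list. The Dppa3 zones and upstream bin, the bin classes, the low stretches and the copy search were added after values had been seen. Alternatives were other windows, coverage minimums, strands, averaging, background rates, rate correction and the removal of cytosines that read as modified in PS, the last also for gene bodies and flanks, added after seeing the data.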

Additional observations from a re-analysis of the deposited data

How the results depend on the processing

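Of 220 recomputed values, 195 stayed close to the reported value, a level within its 95% interval, a count of calls within 1.5 times and a class or call unchanged, and 25 did not. Levels without cytosines that read as modified in PS made up 71 of the values that stayed and 2 of those that did not. Such cytosines lay only in Dppa2 introns, Dppa4 exons and Zfp42 introns. Levels of the other regions, promoters included, could not change under that setting and say nothing on stability. The window decided the class of Dppa3: at 250 bp each side its TAPSβ level was 16.1%, which is low, at 1000 bp it was 34.6%, and on the minus strand alone 34.4%. Its CAPS level was 3.57% at cytosines with at least 10 reads. At Dppa2, TAPSβ was 0 at 250 bp and on the minus strand, and 2.61% at 1000 bp, and at Zfp42 it was 0 at 250 bp. Corrected for the false-positive and conversion rates, CAPS was -0.663% at Dppa5a (0 on the minus strand, uncorrected) and 0.342% at Zfp42, and PS was -0.353% at Dppa2 and at Zfp42, so those levels are at background. With a CAPS background of 0.0038, called cytosines were 47 of 347 tested at Dppa2, 44 of 437 at Dppa4 and 36 of 376 at Dppa3. They were 8 of 233 at Dppa5a and 19 of 492 at Zfp42, where 5.49% of the genome's tested cytosines were called. At 10 or more reads Dppa4 had 9 and Zfp42 had 2 (1.96% over the genome), and with strands summed Dppa2 had 30 and Zfp42 had 9 (5.12% over the genome). The numbers tested per gene were not counted at 10 or more reads or with strands summed, so those counts cannot be set against the genome shares. Without cytosines that read as modified in PS, PS was 0 in Dppa2 introns and 0.297% in Dppa4 exons. These cytosines were picked by their PS level, so PS there had to fall. Dppa3 was the 1 member promoter called in CAPS under both backgrounds tried, and the genome-wide share was 29.5% with the CAPS level of promoters under 10% TAPSβ as background.

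No paired analysis was possible because each method had 1 library. Depth limits single cytosines most: calls at the Dppa3 promoter rest on 2 modified reads each.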

Other observations

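Upstream of Zfp42, CpGs were dense but unread: from 12 to 4.5 kb upstream of the start, 14 of 15 bins of 500 bp had no TAPSβ read although they held 20 to 52 CpG cytosines each. In the upstream 5 kb of Zfp42, 83 of 126 CpG cytosines were listed in TAPSβ.

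The 12 protein-coding promoters within 100 kb of Dppa5a fell on both sides of 20%. Ooep (1.83%), 4930542C12Rik (0.696%), Ddx43 (2.04%), E330016A19Rik (2.5%), Gm17324 (0.983%) and Mto1 (2.38%) were low, and Gsta2, a glutathione transferase, was intermediate at 44.4% TAPSβ with 6.79% CAPS (18 of 265). Omt2a, Omt2b, Gm8074, Gm10639 and Gm3776 lay between 59.5% and 77.8%. CAPS at Ooep was 3.48% (16 of 460), above the 0.174% of Dppa5a itself.

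Sequence copies of at least 250 bp at 95% identity were found for all 5 transcripts: 2 for Dppa2, with a best identity of 98.9%, of which the one on chromosome 19 aligned in 2 adjoining segments, and 1 each for Dppa4, Dppa3, Dppa5a and Zfp42. The 2 other places on chromosome 9 with the last 245 bases of Dppa5a matched its transcript from base 12 to base 619. They did so in blocks at 94.5%, 97.3% and 100% identity. Each block was under 250 bp, so these places are not in the count of copies. Copies of Dppa2, Dppa3, Dppa5a and Zfp42 and the Dppa5a blocks at 94.5% and 97.3% also take in transcript bases inside the promoter windows. The Dppa3 copy, at 97.7% identity, matched bases 17 to 833, of which those up to base 201 lie in the window. What reads from the copies or from these places add to the exon or promoter values was not tested.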
